A study of Homo sapiens with 8 samples.

Results

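BCL2 family genes decide whether the outer mitochondrial membrane stays intact. BCL2, BCL2L1, MCL1 and BCL2L2 encode the proteins that hold cells back from apoptosis. BAX and BAK1 encode the effectors that form pores in the membrane. BCL2L11 (BIM), BBC3 (PUMA), PMAIP1 (NOXA) and BID encode BH3-only proteins, which sense stress and act on the other members. A gene of this family can make several transcripts by splicing and by the choice of poly(A) site, and neuroblastoma cells commonly depend on an anti-apoptotic member.

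The 10 genes named here were all found in the annotation, out of 19389 protein-coding genes. Each gene was described by the poly(A) peaks that overlapped its span or the 4 kb after its 3′ end. Their windows held 90 of the 153624 peaks in the list, and 86 were retained after removal of peaks with the sequence of internal priming and no poly(A) signal.

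The peaks come from poly(A) 3′-sequencing, in which each read begins where the poly(A) tail joins the transcript. The libraries were made from Kelly cells, a MYCN-amplified human neuroblastoma line, and from Kelly E9R cells, a derivative selected in an earlier CDK12 inhibitor in which the cysteine of CDK12 that THZ531 binds is mutated. CDK12 and CDK13, kinases that act on elongating RNA polymerase II, are inhibited covalently by THZ531. Both lines received DMSO or 400 nM THZ531 for 6 h, with 2 libraries in each of the 4 groups, and the study asked whether transcripts of long genes end early when these kinases are inhibited. The doses are those of the sample labels, and the methods of the study state a lower one for these lines.

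The values analysed are 1 list of peaks called after the reads of the 8 libraries had been merged. Treated and untreated cells, and both lines, are therefore in every value below. No value has a replicate, no effect of THZ531 could be tested, and fewer cells and less RNA per cell cannot be told apart. For each peak the list gives a fold enrichment over the local background and a −log10 q. The pileup, the number of 100-bp extended reads over the summit, was recovered from these. Its highest value in the list was 200, reached by 2 peaks, and 16 peaks (0.0104%) exceeded 100. A limit of 200 is what 100 bp and 2 strands allow if 1 read per position and strand was kept, and the handling of duplicate reads is not stated. Heights are thus not read as transcript abundance. Their 95% intervals are exact Poisson intervals and cover counting error only. Of 11 noradrenergic neuroblastoma markers, all had a peak at a transcript end, with pileups from 39 (TH) to 121 (PHOX2A). Of 9 markers of other cell types, 6 had no peak and 3 had an end peak, with pileups of 16 (COL1A1), 7 (COL3A1) and 6 (EPCAM).

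Sequences at the ends of these genes are shown first, because a genuine 3′ end usually has a poly(A) signal, most often AATAAA, shortly before the cleavage position. The 30 bases around the signal used at the end of the reference (MANE Select) transcript are given 5′ to 3′ on the gene's strand (GRCh38), with the motif in capitals.
BCL2, chr18:63123352-63123381, minus strand: attgtgaagaaaAATAAAgtacagtgtgag
BCL2L1, chr20:31664464-31664493, minus strand: gtgcagttcagtAATAAActgtgtttactc
MCL1, chr1:150574559-150574588, minus strand: ctgagaaaaaaaAATAAAtcttttattcaa
BCL2L2, chr14:23311714-23311743, plus strand: ttaaaaacaataAATAAAgcccagaagttt
BAX, chr19:48961765-48961794, plus strand: tcttgagggggtAATAAAcctccttcggga
BAK1, chr6:33572556-33572585, minus strand: tgagtgtttggaAATAAActgtgcaatccc
BCL2L11, chr2:111168414-111168443, plus strand: taattttataaaAATAAAactttcaactag
BBC3, chr19:47220829-47220858, minus strand: tgtttccttttcAATAAAatcagattggaa
PMAIP1, chr18:59904275-59904304, plus strand: tggcagtaaactATTAAAagttttcactgt
BID, chr22:17734143-17734172, minus strand: ccactgtttggaAATAAAtcttcctaacac

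A peak at an annotated transcription end site (TES) was found in 10 of 10 genes, where 64.5% of all protein-coding genes had one and 76.2% had a retained peak of any kind. A TES peak is one that overlaps the window from 200 bp before to 600 bp after the end of a GENCODE basic transcript. Of the 86 retained peaks, 17 were at a TES, 11 in an exon, 52 in an intron (60.5%), 4 within a gene span but outside its basic transcripts and 2 after the gene end. BCL2 alone held 30 of the 52 intronic peaks (57.7%). A −log10 q of at least 5, the study's own cut-off, was reached by 69 of the 86 peaks (75.6% of all peaks in protein-coding genes), by 17 of 17 at a TES and by 37 of 52 in introns. The median pileup was 20 at a TES, 13 in exons and 8.5 in introns, beside 19, 13 and 8 over all protein-coding genes.

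**Figure D1:**
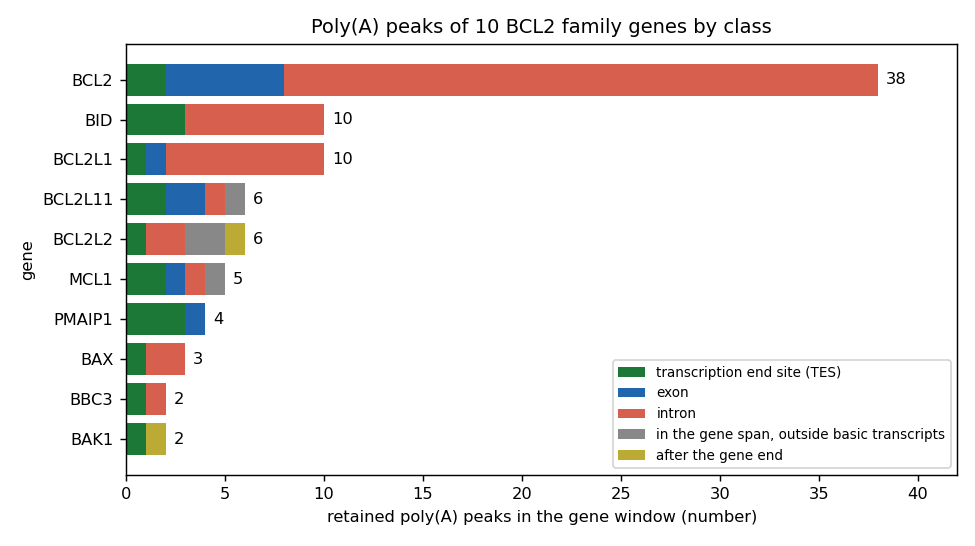
Number of retained poly(A) peaks (horizontal axis) in the window of each of the 10 genes (vertical axis), with bar colours for the class of the peak and the total at the end of the bar. BCL2 reaches 38 peaks, 30 of them intronic, while BBC3 and BAK1 have 2 each.

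The sequence around the peaks differed between classes. A poly(A) signal (PAS), was searched in the 100 bp that precede the 3′ end of a peak. The 12 motifs were AATAAA itself, its common variant ATTAAA, and the rarer forms AGTAAA or TATAAA or CATAAA or GATAAA or ACTAAA or AATATA or AATACA or AATAGA or AATGAA or AAGAAA. A motif was found at 16 of 17 TES peaks, 9 of 11 exonic peaks and 30 of 52 intronic peaks. Over all protein-coding genes the shares were 85.6%, 67.4% and 54.3%. The mirror-image windows of the other strand held a motif at 9 of 17, 6 of 11 and 13 of 52 peaks. Several of the 12 motifs overlap each other in A-rich sequence, so that a motif there carries less information. AATAAA was the first-ranked motif at 14 TES peaks and 11 intronic peaks.

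A-rich genomic sequence is a place on which oligo(dT) can prime without a poly(A) tail. A peak was called A-rich when the 50 bp after its 3′ end held an unbroken run of 6 A or a 10-bp window with at least 7 A. This applied to 5 of 17 TES peaks, 2 of 11 exonic peaks and 46 of 52 intronic peaks, beside 19.2%, 52.1% and 76.9% over all protein-coding genes. On the opposite strand of the members' intronic peaks it was found at 5 of 52. The median number of A in the 20 bases after the 3′ end was 15 for intronic and 3 for TES peaks. Peaks with a motif without A-rich sequence numbered 11 of 17 at a TES, 9 of 11 in exons and 5 of 52 in introns. The shares over all protein-coding genes were 71.2%, 35.8% and 16.6%. Outside BCL2, 16 of 22 intronic peaks (72.7%) were A-rich and 5 (22.7%) had a motif without A-rich sequence.

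The strongest end peaks belonged to BID and MCL1. By highest TES pileup the order was BID with 49 reads, MCL1 with 45, BCL2L2 and BBC3 with 26 each, BCL2 with 23, PMAIP1 with 22, BAX with 17, BCL2L1 with 15, BAK1 with 14 and BCL2L11 with 10. The median over genes with a TES peak was 22. The intervals of neighbours in this order overlapped throughout. The interval of BID (36.3 to 64.8) lay above those of BCL2 (14.6 to 34.5) and the 5 genes after it, and still overlapped that of BCL2L2 and BBC3 (17.0 to 38.1). BBC3 had the highest fold enrichment of any peak in the family, 18.4, over a background of only 0.470 reads. The 3′ end of 12 of the 17 TES peaks lay within 20 bp of an annotated transcript end.

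**Figure D2:**
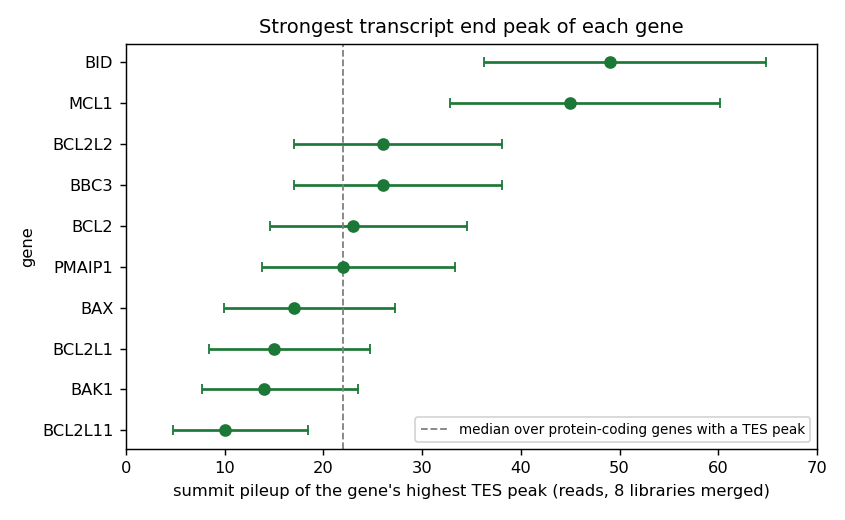
Highest pileup at a transcription end site (reads, horizontal axis) in each gene (vertical axis). Bars are exact 95% Poisson intervals, which cover counting error only, and the dashed line at 22 is the median over protein-coding genes with a TES peak. BID and MCL1 lie to the right of the line with their whole interval, and BCL2L11 to the left.

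BCL2, the founding member of the family and the target of BH3 mimetic drugs, was the longest of the 10 genes (chr18:63123346-63320128, minus strand, 196.8 kb). It had 41 peaks, of which 38 were retained, and they formed an early group, a long intronic series and a 3′ UTR group. At the end of the gene, the peak chr18:63123345-63123460 had a pileup of 23, a fold enrichment of 11.8 and a −log10 q of 20.2. Its 3′ end was 1 bp from the annotated end, and its AATAAA started 25 bp before. Further 3′ UTR peaks ended 291, 3450 and 3752 bp before this end, with pileups of 15, 13 and 10. The peak farthest from the end was A-rich and had no motif.

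The early group of BCL2 comprised 4 peaks, 2.19 to 6.32 kb after the gene start. Their pileups in order along the gene were 15, 13, 14 and 20, with fold enrichments of 6.43, 5.30, 5.73 and 8.40. All 4 had AATAAA 16 to 35 bp before the 3′ end and none was followed by A-rich sequence. They lie in the single exon of the transcript BCL2-203 (chr18:63313802-63318812), which runs on from the first coding exon into the long intron of the reference transcript and lacks its last coding exon. Transcripts of this form encode the shorter BCL2 beta protein, without the C-terminal membrane anchor. The last of the 4 peaks ended 6 bp before the annotated end of BCL2-203, and the other 3 lie in its 3′ UTR and match no annotated end. Their signals are shown because they resemble the signal at the end of the gene.
BCL2 early peak 1, chr18:63317957-63317986, minus strand: tggagccggcgaAATAAAatcagagttgtt
BCL2 early peak 2, chr18:63315811-63315840, minus strand: aggacactttggAATAAAagtggtagtgtt
BCL2 early peak 3, chr18:63315355-63315384, minus strand: gactacaaattaAATAAAgactaaagaagt
BCL2 early peak 4, chr18:63313806-63313835, minus strand: ccataaattaaaAATAAAaaaaaggcaagc

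The background under these 4 peaks was 1.49 to 1.64 reads, higher than the 0.1896 to 0.990 under the intronic peaks of BCL2. On the reference transcript alone, a choice made after seeing the data, they count as intronic. BCL2 then had 34 intronic peaks, and these 4 were the ones with a motif without A-rich sequence.

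The remaining 30 intronic peaks of BCL2 all lay in intron 2 of the reference transcript, which is 189.3 kb long, and were spread from 10.3 to 174.1 kb after the gene start. Their pileups ran from 5 to 13 with a median of 8, and their fold enrichments from 4.48 to 9.03 with a median of 5.87. A −log10 q of at least 5 was reached by 22 of them and of at least 10 by 6. All 30 were followed by A-rich sequence on the BCL2 strand, with 6 to 19 A in the next 20 bases (median 15), and 4 of 30 on the opposite strand. Of the 30, 19 had a motif on the BCL2 strand and 11 on the other strand. No peak of this series thus had a motif without A-rich sequence. The strongest by −log10 q was chr18:63218437-63218560 (pileup 13, fold enrichment 9.03, −log10 q 11.7), with ATTAAA 27 bp before its 3′ end.

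The 30 genomic bases right after the 3′ end of 4 peaks of this series, the strongest and others along the intron, show the contrast with the ends above. Capitals mark the bases in a run of 6 A or in a window with 7 A of 10. In transcripts that were cleaved at a peak, these bases would not be present.
After BCL2 peak at 63306854, chr18:63306824-63306853, minus strand: AAAAAAAAAAAGCACAAAAAAACCTcataa
After BCL2 peak at 63261791, chr18:63261761-63261790, minus strand: AAAAAATAACAACAAAAAAGAAAATTAgta
After BCL2 peak at 63218437, chr18:63218407-63218436, minus strand: CGAAAGAAAAAAAAGAAAGGgaagaaggag
After BCL2 peak at 63194352, chr18:63194322-63194351, minus strand: AAAAAAAAAAAAAGAAAAAAGTttaaaaat

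The same reading at the end of the gene gave 3 A in 20 bases. A further 3 peaks of this intron, with pileups of 5, 7 and 5, were removed because 25 A with at most 3 mismatches followed and no motif preceded them.

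**Figure D3:**
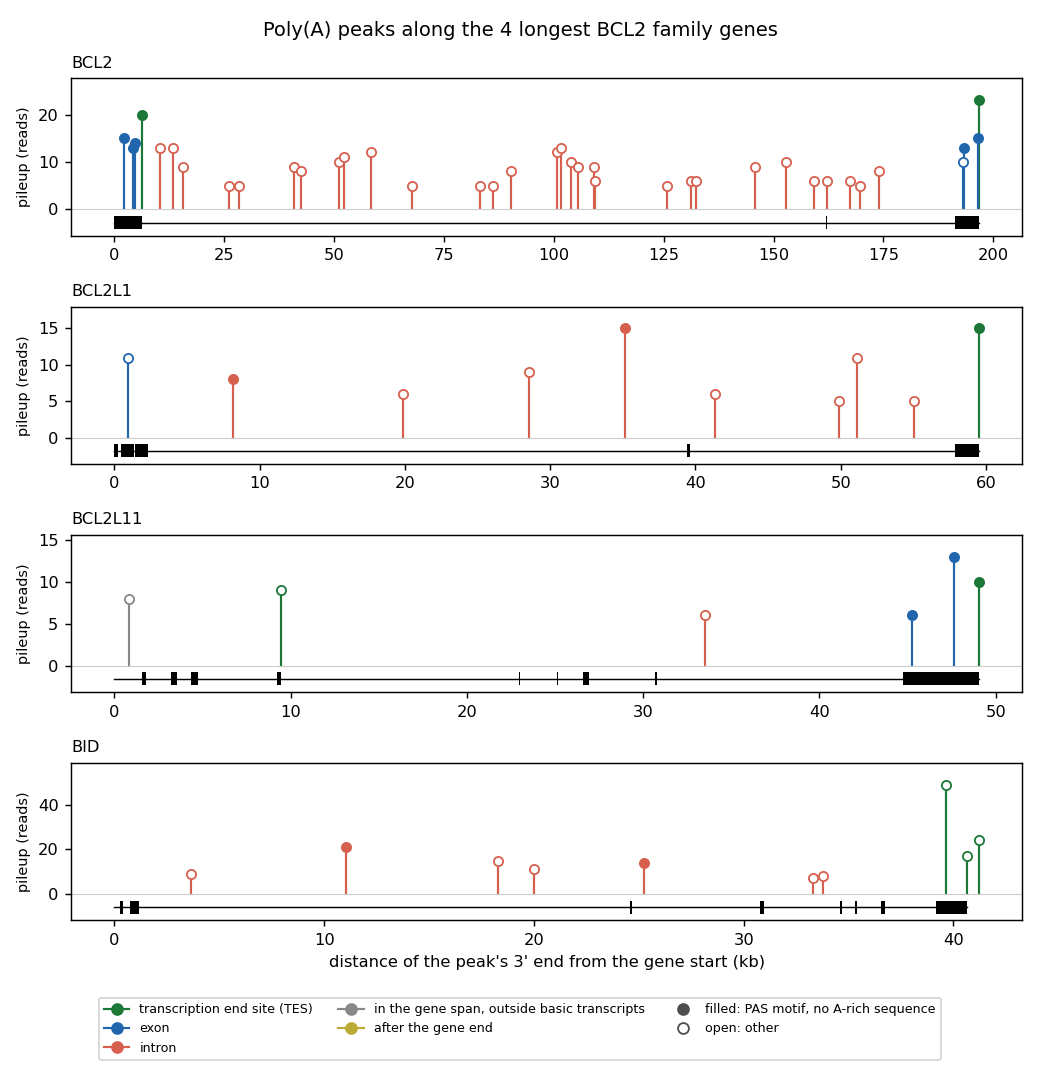
Summit pileup of each retained peak (reads, vertical axis) against the distance of its 3′ end from the gene start (kb, horizontal axis) in the 4 longest genes, with exons of basic transcripts as black boxes. Colours give the class, and filled symbols mark peaks with a PAS motif without A-rich sequence. In BCL2 the filled symbols stand at both ends of the gene and the 30 intronic peaks between them are open, whereas BCL2L1 and BID each have 2 filled intronic peaks.

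BCL2L1, which encodes the anti-apoptotic BCL-XL and, by another splice site, the pro-apoptotic BCL-XS, spans 59.5 kb (chr20:31664452-31723989, minus strand). It had 10 peaks, 8 of them in intron 2 of the reference transcript. The end peak chr20:31664453-31664560 had a pileup of 15, a fold enrichment of 10.3 and a −log10 q of 14.4, and its 3′ end was 1 bp from an annotated end. An intronic peak equalled it in height. At chr20:31688834-31688956, 35.2 kb after the gene start, the pileup was 15, the fold enrichment 11.3 and the −log10 q 16.2. This peak and chr20:31715819-31715946, with a pileup of 8, had a motif without A-rich sequence. The other 6 intronic peaks were A-rich, with pileups of 5 to 11. Both peaks with a motif also lie within BCL2L1-AS1, a lncRNA on the opposite strand, and the list gives no strand, but neither had a motif on that strand. An exonic peak 0.966 kb after the gene start (pileup 11) was A-rich, had no motif and lies within the lncRNA ABALON on the opposite strand. The signals of the intronic peaks with a motif without A-rich sequence are shown.
BCL2L1, chr20:31688840-31688869, minus strand: tctgtgtcagtaCATAAAagctttctcagt
BCL2L1, chr20:31715822-31715851, minus strand: tcaaaaaataaaAATAAAaagtctctctgg

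MCL1, whose protein turns over rapidly and must be replaced by constant transcription, had 3 strong peaks in the 3′ UTR of its last exon and no intronic peak in its reference transcript. The end peak chr1:150574556-150574688 had a pileup of 45, a fold enrichment of 12.01 and a −log10 q of 33.9. Upstream of it, chr1:150575952-150576240 had a pileup of 33 and a fold enrichment of 10.0, and matched no annotated end. Nearest to the coding sequence, chr1:150577189-150577302 had a pileup of 22 and a fold enrichment of 7.06, and lay 119 bp before the end of the short transcript MCL1-201. The 3 intervals overlapped for neighbours, and that of the end peak (32.8 to 60.2) only just met that of the peak nearest the coding sequence (13.8 to 33.3). All 3 carried AATAAA, and the peak nearest the coding sequence was followed by A-rich sequence.
MCL1, chr1:150575975-150576004, minus strand: gcctagtatgtcAATAAAgcaaatacttac
MCL1, chr1:150577206-150577235, minus strand: atggctaacaagAATAAAtacatgggaaga

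The gene span of MCL1 (chr1:150560895-150579738, minus strand, 18.8 kb) is longer than its reference transcript. MCL1-208 runs on downstream to 150563102, and the span ends beyond it, outside basic transcripts. In an intron of MCL1-208, chr1:150570782-150570894 had a pileup of 24, with AAGAAA as its first-ranked motif and A-rich sequence after it. At the far end of the span, 2206 bp past the end of MCL1-208, chr1:150560896-150560998 (pileup 10) lies in ADAMTSL4 on the opposite strand and in ADAMTSL4-AS1 on the same strand, and had motifs on both strands. The latter peak covers the annotated end of ADAMTSL4 (150560937) and was the only retained peak of that gene, a TES peak. Neither peak can be given to MCL1 with certainty.

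BCL2L2, which encodes BCL-W (chr14:23298790-23311751, plus strand, 13.0 kb), had 1 end peak (chr14:23311587-23311750, pileup 26, fold enrichment 11.2, −log10 q 20.97), 1 bp before the annotated end. The position is also within the readthrough gene BCL2L2-PABPN1, as is a peak 1314 bp after the gene end (pileup 13) that was A-rich. The 2 intronic peaks lie outside the reference transcript, in the long first intron of BCL2L2-210, with pileups of 13 (chr14:23303069-23303172) and 8, and both were A-rich. Another 2 peaks near the gene start, with pileups of 15 and 14, lie in PPP1R3E on the opposite strand. They had no motif on the BCL2L2 strand and, on the PPP1R3E strand, both a motif and A-rich sequence.

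Among the effectors, BAX (chr19:48954815-48961798, plus strand) and BAK1 (chr6:33572547-33580293, minus strand), each gene had 1 TES peak, lower than the median of 22. The BAX peak chr19:48961554-48961803 had a pileup of 17 and a fold enrichment of 6.38. At 250 bp it was wide, covered both the end of the coding sequence and the 3′ UTR, and took in the ends of BAX-203 and BAX-205 as well as that of the reference transcript. BAX also had 2 peaks in intron 4, with pileups of 11 and 14 (chr19:48959254-48959508). Neither had a motif, and the higher one was A-rich. The lower one had a −log10 q of 4.15, below the study's cut-off. The BAK1 peak chr6:33572550-33572659 had a pileup of 14 and a fold enrichment of 9.38. BAK1 had 0 intronic peaks, and a peak 1163 bp after the gene end (pileup 7) had no motif and no A-rich sequence. All of BAK1 lies within the span of the pseudogene GGNBP1 on the opposite strand.

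Among the BH3-only genes, BCL2L11, which encodes BIM and its splice forms (chr2:111119378-111168444, plus strand, 49.1 kb), had the lowest end peaks. At the end of the reference transcript chr2:111168344-111168444 had a pileup of 10 and a fold enrichment of 6.25. A peak inside the last exon, chr2:111166740-111167038, 1406 bp before the end, had a pileup of 13 and a fold enrichment of 8.09, and another in that exon a pileup of 6. The TES peak with the highest −log10 q, 8.13, was at the end of the short transcript BCL2L11-205, 9.47 kb after the gene start (chr2:111128742-111128843, pileup 9). It had AATAAA and was followed by A-rich sequence. BCL2L11 had 1 intronic peak (chr2:111152788-111152890, pileup 6), which had ATTAAA and was A-rich. The gene lies within MIR4435-2HG, a lncRNA on the opposite strand, so each of its 6 peaks overlaps that gene too. One of the 6, near the gene start (pileup 8), had a motif, and A-rich sequence, on the opposite strand only.

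BBC3, a p53 target that encodes PUMA (chr19:47220822-47232766, minus strand, 11.9 kb), had 2 peaks. Its end peak chr19:47220799-47220935 had a pileup of 26 and a −log10 q of 32.9, with AATAAA starting 48 bp upstream of its 3′ edge. The intronic peak chr19:47226965-47227117 had a pileup of 6, a fold enrichment of 4.67 and a −log10 q of 3.69, below the study's cut-off. Its only motif was AATAGA, 84 bp before the 3′ end, and it was not A-rich. The 3′ end lies inside the annotated hairpin of MIR3191 on the same strand (chr19:47226944-47227019).

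PMAIP1, which encodes NOXA, is the shortest gene of the 10 (chr18:59899996-59904305, plus strand, 4.31 kb) and had 4 peaks, all in the 3′ UTR of its last exon and 0 in its introns. The peak at the reference end, chr18:59904190-59904306, had a pileup of 22 and a fold enrichment of 9.39. The peak at the end of PMAIP1-201, chr18:59903166-59903531, had a pileup of 20 and a fold enrichment of 8.40, and was A-rich. The other peaks had pileups of 14 and 13. The intervals of the 4 peaks overlapped, and a difference in height between them was not tested.

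BID, which encodes the protein that carries the signal of death receptors to mitochondria after cleavage by caspase-8, had its strongest peak inside the 3′ UTR and not at its reference end (gene span chr22:17734138-17774770, minus strand, 40.6 kb). The peak chr22:17735118-17735499 was 382 bp wide, with a pileup of 49, a fold enrichment of 16.3 and a −log10 q of 44.8. It covered the annotated ends of BID-202 and BID-204, which lie upstream of its 3′ edge, and A-rich sequence followed that edge. At the reference end, chr22:17734140-17734239 had a pileup of 17 and a fold enrichment of 5, and was A-rich as well. The intervals of the inner peak (36.3 to 64.8) and the reference end (9.90 to 27.2) did not overlap. A peak 595 bp after the reference end (chr22:17733543-17733654), counted as a TES peak, had a pileup of 24 and no motif on the BID strand. On the opposite strand this peak had a motif, and the list gives no strand. The first motif by rank of the inner peak was ATTAAA, 76 bp before its 3′ edge and thus downstream of both of the ends it covered.
BID inner end, chr22:17735176-17735205, minus strand: aaattactgtttATTAAAgtacaaccatag

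**Figure D4:**
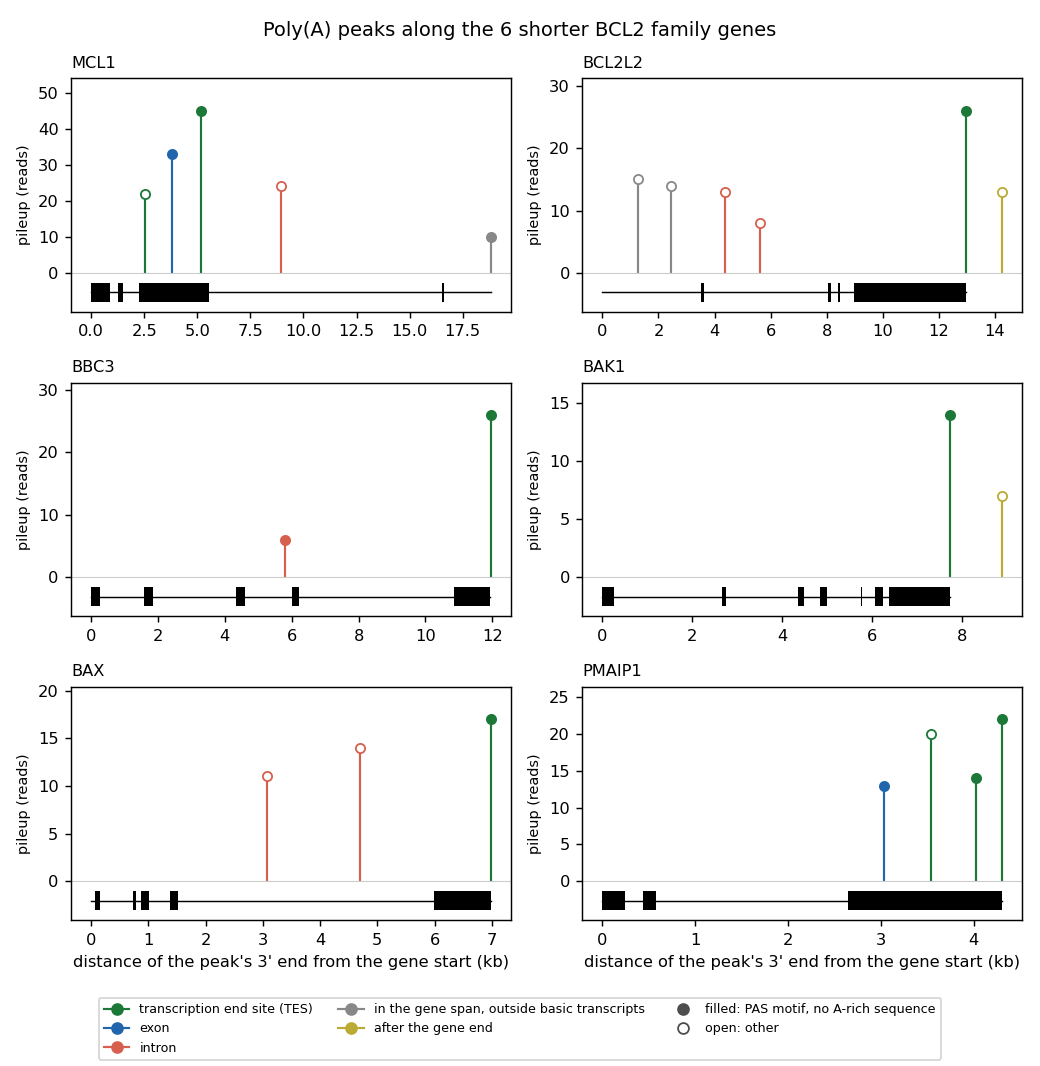
Summit pileup of each retained peak (reads, vertical axis) against the distance of its 3′ end from the gene start (kb, horizontal axis) in the 6 shorter genes, with exons as black boxes and colours and fills as in the plot of the longest genes. MCL1 and PMAIP1 each have 3 peaks or more in the last exon of the reference transcript, while BBC3, BAK1 and BAX each have 1 peak at the end.

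BID also had the strongest intronic peak among the genes by −log10 q. At chr22:17763714-17763826, in intron 1 of the reference transcript and 11.1 kb after the gene start, the pileup was 21, the fold enrichment 12.1 and the −log10 q 19.7. In intron 2, chr22:17749529-17749774 had a pileup of 14, a fold enrichment of 11.4 and a −log10 q of 16.3. Both had AATAAA and no A-rich sequence. Their fold enrichments were above the 5 of the reference end, over backgrounds of 0.820 and 0.320 reads against 2.60 there, while the pileup of the peak in intron 2 was below the 17 of the reference end and the interval of the peak in intron 1 (13.0 to 32.1) overlapped that of the reference end. On the opposite strand, the first of them had a motif and A-rich sequence, whereas the second had neither. The other 5 intronic peaks of BID were A-rich, with pileups from 7 to 15, and 1 more (pileup 10) was removed. The signals of the 2 peaks are shown because they have the form seen at annotated ends.
BID intron 1, chr22:17763726-17763755, minus strand: tgtattggttctAATAAAtggttgcttttc
BID intron 2, chr22:17749532-17749561, minus strand: caataaaggtcaAATAAAagtactgtaaac

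Intronic peaks were then set against gene length, because longer genes hold more of them. An intronic peak was present in 8 of 10 members, all but BAK1 and PMAIP1, beside 75.8% of the 12233 intron-bearing genes with a TES peak. With a motif without A-rich sequence, such a peak was present in 3 of 10 members (BCL2L1, BBC3 and BID), beside 45.8%. The first count is close to the background share and the second is lower, and neither difference was tested. Both counts depend on the transcripts used. On the reference transcript alone, a choice made after seeing the data, the first was 6 of 10 and the second 4 of 10. With all GENCODE transcripts the first was 7 of 10. The shares over all genes are for basic transcripts. BBC3 entered the second count through 1 peak with a −log10 q of 3.69, below the study's cut-off. Within 20 bins of gene length, 5 members lay above the median of their bin, 4 at it and 1 below it, beside 39.7%, 26.9% and 33.4% of the 12233 genes. The genes above were BCL2 with 30 intronic peaks (bin median 20), BCL2L1 with 8 (6), BID with 7 (4), BCL2L2 with 2 (1) and BAX with 2 (0). BCL2L11 lay below, with 1 intronic peak against a median of 5. By rank within the bin, BAX stood at percentile 95.2, with 2 peaks that had no motif, BCL2 at 84.4 and BCL2L11 at 10.4. Only intronic peaks with a motif without A-rich sequence were then ranked, a choice made after seeing the data. By these, 3 members (BCL2L1, BBC3 and BID) lay above the median of their bin, beside 29% of the genes. BCL2, BCL2L2 and BAX had 0 such peaks. Per 100 kb of intron, BAX had 31.4 intronic peaks, BCL2L2 24.9, BID 18.1, BCL2 15.8 and BCL2L1 14.0. BBC3 had 9.44, MCL1 6.22, BCL2L11 2.35, and BAK1 and PMAIP1 0. The median over genes was 9.38.

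**Figure D5:**
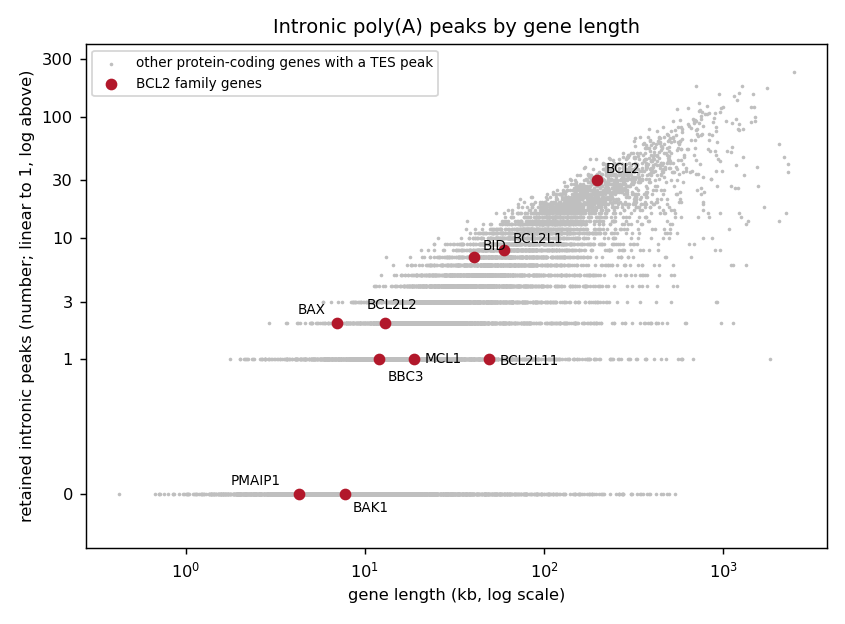
Number of retained intronic peaks (vertical axis, linear to 1 and logarithmic above) against gene length (kb, logarithmic horizontal axis). Grey points are other intron-bearing genes with a TES peak, and red points the 10 BCL2 family genes. BCL2, BID and BCL2L1 lie in the upper part of the cloud at their length and BCL2L11, with 1 peak, in its lower part.

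Other apoptosis genes were counted by the same rule. Over all protein-coding genes, 64.5% had a TES peak. Of the 12233 intron-bearing genes with a TES peak, 75.8% had an intronic peak, 39.7% lay above their bin median and 33.4% below it. No difference from these shares was tested. Of 13 further genes of the BCL2 family and its relatives, 11 had a TES peak and 9 an intronic peak. BCL2A1 and BCL2L10, both anti-apoptotic members with restricted expression, had no retained peak. Of the 11 with a TES peak, 6 lay above the bin median of intronic peaks and 4 below it. Of 19 genes of the apoptosome, the caspases and their inhibitors, 18 had a TES peak and 15 an intronic peak, 9 lay above the bin median and 5 below it, and BIRC3 had no retained peak. The most intronic peaks were found in BIRC6, a giant inhibitor of apoptosis (33, bin median 20, 5 with a motif without A-rich sequence), BCL2L13 (15, median 9, 2 such peaks) and BCL2L14 (8, median 14, 2 such peaks). BCL2L14 had 34 retained peaks, with 1 at a TES (pileup 4) and 0 in exons. Those beyond the TES and intronic peaks lay outside its basic transcripts or after its end, and peaks carry no strand.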

How the data were processed

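RNA of 8 libraries (4 groups of 2) was sequenced with a 3′ kit that reads from the poly(A) junction. Per the labels and the study's methods, the authors mapped reads with STAR 2.5.1b to GRCh38, merged all samples and called peaks with MACS2 2.1.1, extending each read to 100 bp. Other tools named in the submitters' processing notes are SAMtools and deepTools 2.5.4. The deposited list gives a score, the fold enrichment (a ratio of pileup to background), −log10 p and −log10 q of each peak, and the summit offset. It has 0 columns per sample, so depth per library is unknown and the planned comparison of THZ531 with DMSO could not be run. Peaks carry no strand.

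The whole pileup that gives both the deposited fold and −log10 p was found for 100% of peaks (within 0.01 of the −log10 p), after the formulas of MACS2. Peaks were annotated with GENCODE 44 on GRCh38 (basic transcripts without readthrough ones), a later release than the study's. Classes were taken in the order TES, exon, intron, outside basic transcripts, after the gene end, by an overlap of at least 1 bp. Since peaks carry no strand, the gene's strand set the 3′ end. A peak was removed when 25 A (at most 3 mismatches) followed within 50 bp and the preceding 100 bp had no PAS motif. Where a peak lay in the windows of several genes, it counted in each for the shares over all genes. Motifs were ranked in the study's order, then by distance. Python 3.11.15, numpy 2.4.6, scipy 1.17.1 and pysam 0.24.0 were used, and the functions were tested on simulated data.

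The genes described are the 10 members, with the TES and the intronic peak of highest −log10 q of each, neighbours that their windows reach, and, of the other apoptosis genes, those with the 3 most intronic peaks and those with none. The members and lists were chosen with earlier results of these data known. Alternatives varied the peak threshold, overlap, windows, transcripts, motifs, A rule and length bins.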

Additional observations from a re-analysis of the deposited data

How the results depend on the processing

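No paired analysis was possible because the list holds no value per library. Of the alternatives, 72 values were within 1.5 times the main count and 15 were not. At a −log10 q cut of 10, peaks numbered 27 in all, 4 in exons, 11 in introns and 0 outside transcripts, where they left 4 members with an intronic peak, 23 peaks with a motif and 12 A-rich peaks. Peaks outside basic transcripts or after the gene end (6) became 13 with a window of 10 kb, 2 with all GENCODE transcripts and 2 without peaks in another protein-coding gene. With the MANE Select transcript alone, chosen after seeing the data, they became 10 and the TES peaks fell from 17 to 11. By the rule of 25 A with at most 3 mismatches, 0 retained peaks were A-rich, against 54 by the looser rule. For peaks without a motif this 0 was fixed in advance, because the removal of peaks used the same rule. Members with an intronic peak fell from 8 to 3 when a motif and no A-rich sequence were required, and members above their bin median from 5 to 3 (chosen after seeing the data). Depth limits the low peaks most: a pileup of 5 has an exact Poisson interval of 1.62 to 11.7 (95%, counting error only).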
